A study of Mustela putorius furo with 8 samples.

Results

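Collagen genes were taken as every feature whose whole symbol was COL, a number, A and a number. The rule found 44 of the 27912 genes in the matrices, and it used no measured value. Of these, 8 were grouped as basement membrane collagens, 11 as fibrillar collagens and 25 as other collagens. Single-cell RNA counts came from ferret pancreatic ductal epithelia (PDE), 1 library for each genotype at day 2, 5, 7 and 9 of an air-liquid interface (ALI) culture. The groups were wild type (WT) and CFTR KO/KO (CF), the latter without CFTR, the anion channel that is defective in cystic fibrosis. Duct cells of both genotypes came from the pancreas of ferrets aged 1 to 3 days, were grown over 10 passages in PneumaCult-Ex Plus on 804G matrix, seeded on 804G-coated transwells and then polarized in PneumaCult-ALI. The study pooled 3 donors of each genotype, no cell was assigned to a donor, and the labels also give a longer ALI time for the culture method in general, which was not used here. Every value therefore comes from a single library with no replicate error, intervals are 95% intervals that cover counting error only, and no test between genotypes was run.

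Collagens are extracellular proteins built from 3 chains wound into a triple helix. Fibrillar collagens assemble into the cables of connective tissue and are made mainly by fibroblasts, whereas type IV collagen forms the sheet-like network of the basement membrane on which epithelia rest. Types XV and XVIII sit at that membrane, and types VII and XVII help to anchor epithelial cells to it.

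The libraries held between 4634 and 6224 retained cells in WT and between 1607 and 4499 in CF, with a median of 14949 to 16862 UMIs (unique molecular identifiers, counted transcripts) per WT cell and 17833 to 23427 per CF cell. The CF day 7 library stood apart in depth, with 411 of its 1607 cells under 3000 UMIs. The CF day 9 library was next, with 224 of 2489 cells, and the remaining libraries had 39 to 150 such cells. Any pair of libraries shared between 1 and 14 barcodes of retained cells. CFTR itself was 6.57, 16.9, 15.9 and 29.5 CPM (UMIs per 1e6 UMIs of the library) in WT and 2.50, 8.69, 11.1 and 11.4 CPM in CF in day order. The study states that CFTR KO/KO ferrets express no CFTR mRNA. These counts do not check the knockout, since where the counted reads lie relative to the targeted site was not given. The source of the CF UMIs was not tested. Epithelial markers, led by KRT19, summed to between 8467 and 10918 CPM in every library. Endothelial, Schwann, endocrine and acinar enzyme markers each summed to at most 0.259 CPM, though only 2 of the 5 acinar enzyme genes, CEL and CPB1, were in the matrices, and CDH5, TEK, EMCN, SOX10, S100B, NEUROD1 and CPB1 were at 0 in every library.

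By UMIs, which count the 3' ends of transcripts and were not set per length, the collagens of these cultures were mainly not fibrillar. The basement membrane group held 140378 UMIs over the 8 libraries, the other group 128158 and the fibrillar group 19826. Of the 44 genes, 20 reached 1 CPM in at least 1 library and were counted as detected, 7 of 8 basement membrane, 5 of 11 fibrillar and 8 of 25 other collagens. A level of 10 CPM was reached by 10 genes. No UMI at all was counted for COL2A1, COL6A5, COL9A2, COL11A1, COL20A1 and COL26A1. The remaining 18, which were COL4A6, COL5A1, COL5A3, COL6A1, COL6A3, COL6A6, COL8A1, COL8A2, COL9A1, COL9A3, COL11A2, COL13A1, COL16A1, COL19A1, COL21A1, COL22A1, COL24A1 and COL25A1, held between 1 and 326 UMIs over all 8 libraries.

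In CF, collagen expression was higher than in WT at day 7 and day 9, and a different picture was seen at day 5. On the scale log2((CF CPM + 1)/(WT CPM + 1)), the median over the 20 detected collagens was 0.54 at day 2, -0.21 at day 5, 1.53 at day 7 and 1.33 at day 9. Over all 12779 genes that passed the same filter it was -0.01, -0.05, 0.12 and 0.08. The 20 collagens included 6 that reached 1 CPM only in CF and 1 that did so only in WT. These were counted through the genotype where they were high, and no median was taken over the other 13. Without 7 CF cells described below, the median over the 20 fell to 0.18 at day 2 and to 1.13 at day 7. With genes at 0 in WT set at their bound of 3 counts, and those at or under 3 counts in both left out, the medians were 0.54, -0.47, 1.53 and 1.47.

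At day 2, 7 of the 20 were at least 2-fold higher in CF and 1 was at least 2-fold lower, where 4.48% of all genes were higher by that rule and 4.77% lower. Without the 7 CF cells described below, 3 were higher and 2 lower at day 2. At day 5, 2 were higher and 6 lower, against 2.68% and 5.14% of all genes. At day 7, 14 were higher and 1 lower, against 5.57% and 3.68%. COL3A1 and COL6A2 passed 2-fold there through 1 cell, without which 12 were higher. At day 9, 15 were higher and 1 lower, against 4.02% and 4.26%. Of the 20, COL1A1, COL1A2, COL3A1, COL6A2, COL14A1 and COL23A1 reached 1 CPM only in CF and COL28A1 only in WT, so these 7 were counted through the genotype where they were high. The 6 gave 5, 1, 5 and 5 of the genes higher in CF at day 2, 5, 7 and 9. Of the 13 that reached 1 CPM in both genotypes, 2, 1, 9 and 10 were higher and 1, 5, 0 and 0 lower, beside 4.15%, 2.19%, 4.65% and 3.28% higher and 3.68%, 4.07%, 2.56% and 2.86% lower among all genes that did so. A lower level in a library can come from fewer cells that make a collagen or from less RNA in each of them, and values summed over a library cannot tell these apart.

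**Figure D1:**
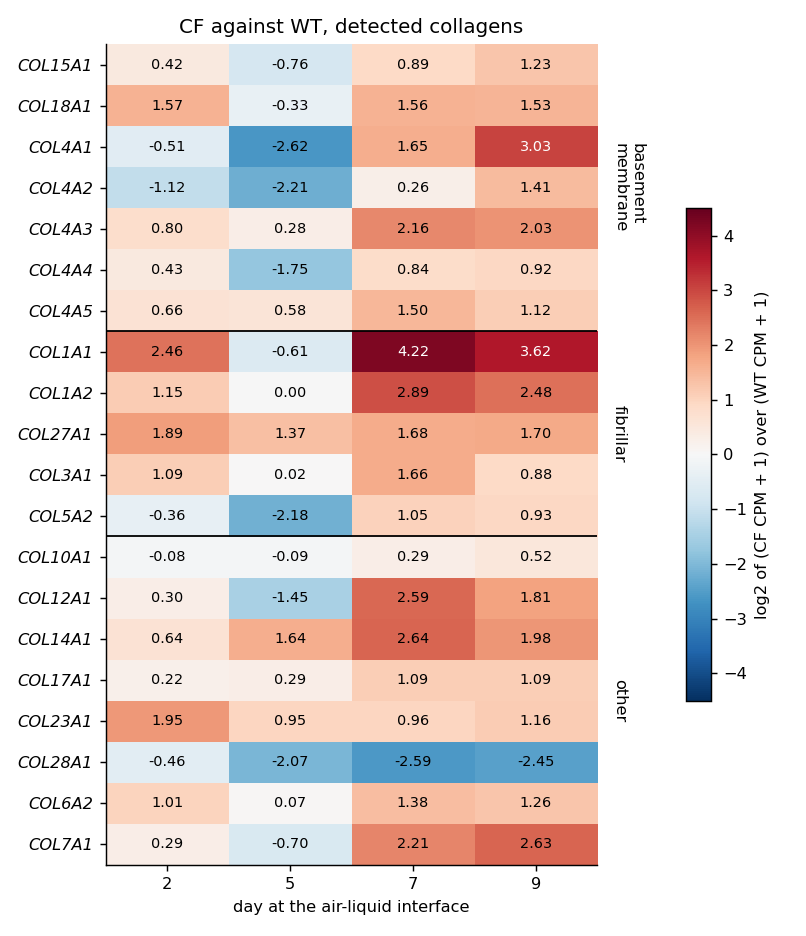
Log2 difference, CF minus WT, of the 20 detected collagens (rows, grouped) at day 2, 5, 7 and 9 (columns), with the value printed in each cell and red for higher in CF. COL28A1 was lower in CF on all 4 days, 8 genes were higher on all 4, and the other 11 were lower at day 5 and higher at day 7 and day 9. Of all genes, 48.7%, 42.8%, 61.8% and 58.4% were higher in CF at day 2, 5, 7 and 9. Some day 5 directions rested on few UMIs in CF and WT: 1 and none for COL3A1, 19 and 21 for COL6A2, 2 and 3 for COL1A2. Without the 7 CF cells described below, COL3A1 had no CF UMI at day 7.

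Among the basement membrane collagens, COL18A1, whose end fragment is endostatin, had its lowest level at day 2 in both genotypes. It was 11.1, 169.5, 135 and 155 CPM at day 2, 5, 7 and 9 in WT and 35.0, 134, 401 and 452 CPM in CF. CF was thus above WT at day 2, 7 and 9, by a ratio of 3.15 (interval 2.95 to 3.36), 2.97 (2.89 to 3.04) and 2.91 (2.84 to 2.97), and below it at day 5, by a ratio of 0.793 (0.774 to 0.813). Without WT cluster 2 and CF cluster 3, which held more of its UMIs than any other cluster of the genotype (21.1% of the WT and 26.2% of the CF UMIs), the log2 difference at day 5 was 0.08 and not -0.33. At that day the clusters held 5893 of 17151 WT and 246 of 9609 CF UMIs of COL18A1, so this removal took mainly from WT.

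COL4A5, an X-linked chain of type IV collagen, was 23.3, 35.3, 31.3 and 32.8 CPM in WT and 37.5, 53.4, 90.5 and 72.2 CPM in CF. It was higher in CF at each day, with ratios of 1.61, 1.51, 2.89 and 2.20, and it was spread widely over the clusters, since the 5 clusters richest in it held 33.0% of its WT and 40.9% of its CF UMIs. Its neighbour COL4A6, which is usually made from a shared promoter region, was close to absent, at between 1 and 15 UMIs per library beside 2599 to 3833 for COL4A5.

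COL4A4, a chain of the specialised type IV network that also holds COL4A3 and COL4A5, was 2.15, 34.4, 20.6 and 22.9 CPM in WT. In CF it was 3.25, 9.56, 37.6 and 44.3 CPM. WT had most at day 5, with a CF to WT ratio of 0.278 (0.255 to 0.301), and CF had more at day 7 and day 9, with ratios of 1.83 (1.70 to 1.97) and 1.94 (1.82 to 2.06).

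COL4A3, its partner chain, was 0.26, 2.12, 1.34 and 1.88 CPM in WT and 1.20, 2.80, 9.47 and 10.8 CPM in CF. It was higher in CF at every day, by ratios of 4.59, 1.32, 7.08 and 5.75, unlike COL4A4 at day 5.

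COL4A1, one of the ubiquitous type IV chains, was 1.53, 10.8, 7.73 and 2.70 CPM in WT and 0.77, 0.92, 26.4 and 29.2 CPM in CF. Its CF to WT ratio ran from 0.0853 (0.0655 to 0.109) at day 5 to 3.42 (3.09 to 3.79) at day 7 and 10.8 (9.41 to 12.5) at day 9. Single cells among the 7 CF cells held 273 of the 918 CF UMIs at day 7 and 242 of the 1462 at day 9. Without the 7 cells the ratios were 2.41 (2.15 to 2.69) and 9.04 (7.84 to 10.5). At day 2 COL4A1 was 0.17 CPM in CF without the 7 CF cells, and the log2 difference of -0.51 became -1.12. At day 7, CF cluster 11 held 664 of the 918 CF UMIs of COL4A1, and WT cluster 2 held 35 of the 641 WT UMIs. Both were left out as the clusters with most COL4A1 UMIs. The day 7 difference was then 0.14 on the log2 scale in place of 1.65.

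COL4A2, which pairs with COL4A1 in the same trimer, was 2.15, 7.47, 6.44 and 2.96 CPM in WT and 0.45, 0.83, 7.89 and 9.52 CPM in CF. It was lower in CF at day 2 and day 5, with ratios of 0.209 (0.149 to 0.288) and 0.110 (0.0833 to 0.144), and higher at day 9, with a ratio of 3.22 (2.75 to 3.76). Without the 7 CF cells the day 2 ratio was 0.0683 (0.0377 to 0.115). At day 7 its log2 difference of 0.26 became -0.65 without CF cluster 11 and WT cluster 2, the clusters with most of its UMIs. At that day they held 165 of 274 CF and 30 of 534 WT UMIs of COL4A2, so this removal took mainly from CF.

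COL15A1, a basement membrane collagen related to COL18A1, was at 0.18 to 1.59 CPM in WT and 0.34 to 4.42 CPM in CF, and on the CPM + 1 scale passed 2-fold only at day 9, with a log2 difference of 1.23. Its plain CF to WT ratios were 3.20, 0.265, 2.39 and 3.38 in day order, and the ratio at day 2 was 0.747 (0.351 to 1.54) without 7 CF cells, 5 of them of day 2, described below. Summed over the group, basement membrane collagens were 40.7, 261, 204 and 220 CPM in WT and 78.7, 202, 577 and 623 CPM in CF, differences of 0.93, -0.37, 1.49 and 1.50 on the log2 scale. The sign of the day 5 sum changed without WT cluster 2 and CF cluster 3, to 0.09. At day 5, WT cluster 2 held 39.8% of the WT basement membrane and fibrillar UMIs, and CF cluster 3 held 2.12% of those of CF.

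**Figure D2:**
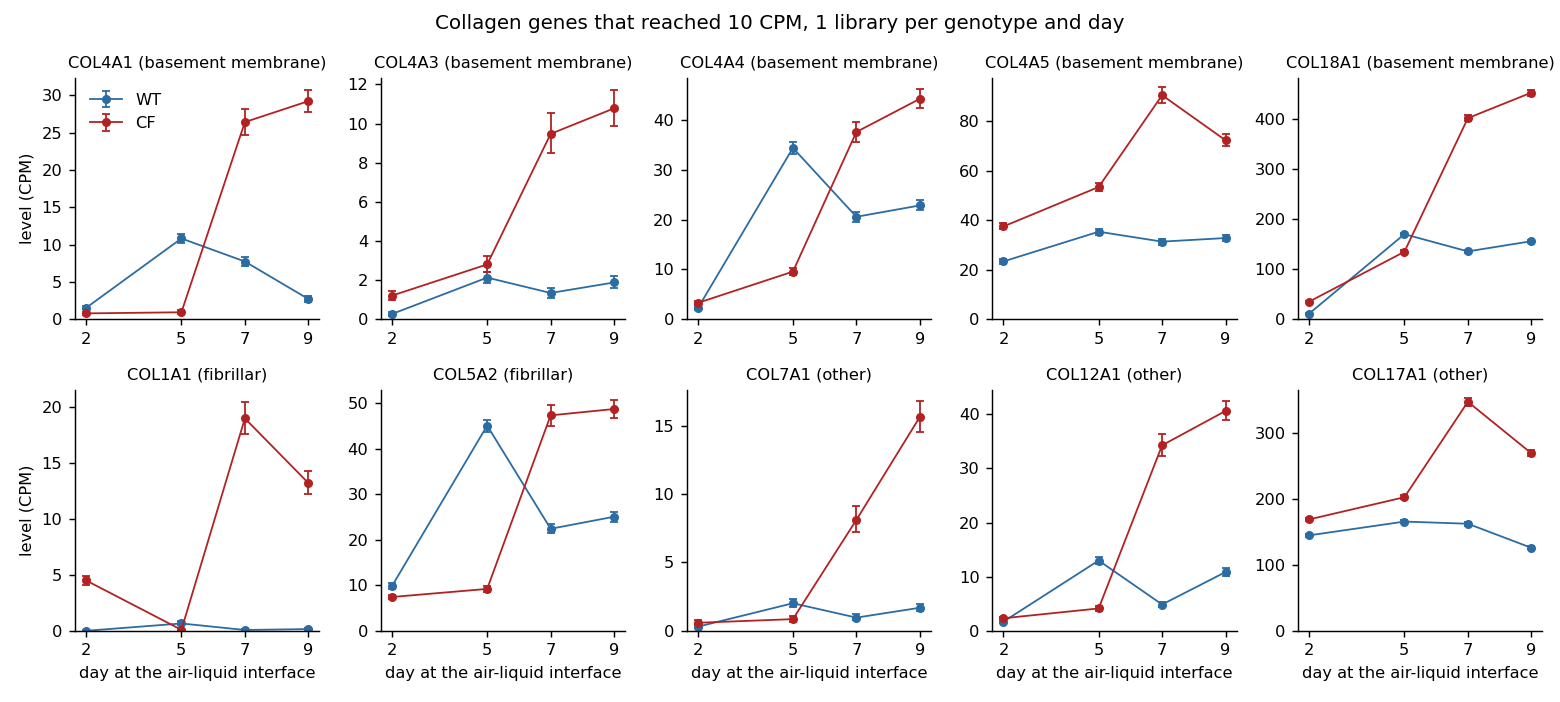
Level in CPM (linear axis from 0, its own scale in each panel) of the collagens that reached 10 CPM, by day at the air-liquid interface, with 1 panel per gene, WT in blue, CF in red and exact Poisson 95% bars. COL17A1 and COL4A5 lie higher in CF at each day, whereas COL4A4, COL5A2, COL12A1 and COL4A1 cross, with WT above CF at day 5 and below it at day 7 and day 9.

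Among the fibrillar collagens, COL5A2, a type V chain that sets fibril width, was 9.83, 45.1, 22.4 and 25.1 CPM in WT. In CF it was 7.43, 9.21, 47.4 and 48.8 CPM. WT peaked at day 5, when the CF to WT ratio was 0.204 (0.188 to 0.222), and CF exceeded WT at day 7 and day 9 with ratios of 2.11 (1.98 to 2.26) and 1.94 (1.83 to 2.06). COL5A1, the other main chain of type V collagen, held only 173 UMIs in all libraries, so its ratio to COL5A2 was between 0.00444 and 0.0868. The highest ratio was that of CF at day 2, which was 0.00575 without the 7 CF cells, and the CF ratio at day 7 was 0.0176 with them and 0.000622 without. Without WT cluster 2 and CF cluster 11, the log2 difference of COL5A2 of -2.18 at day 5 became -0.99 and that of 1.05 at day 7 became 0.44. Both were left out as the clusters with most COL5A2 UMIs, so smaller differences followed partly from that choice. They held 2821 of 4564 WT and 1 of 658 CF UMIs at day 5. At day 7 they held 159 of 1860 WT and 771 of 1645 CF UMIs.

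COL1A1, the main chain of type I collagen, was 0, 0.65, 0.07 and 0.15 CPM in WT and 4.49, 0.08, 18.9 and 13.2 CPM in CF. CF was at least 171-fold higher at day 2, where WT had no UMI and the bound was set at 3 counts per library, and 262-fold (120 to 716) and 85.9-fold (49.9 to 162) higher at day 7 and day 9. COL1A2, its partner chain, was at 0 to 0.04 CPM in WT and at 1.21, 0.03, 6.68 and 4.78 CPM in CF, with only 2 CF and 3 WT UMIs at day 5. COL3A1, the chain of type III collagen, had no UMI in any WT library and 1.13, 0.01, 2.16 and 0.84 CPM in CF. Without 7 CF cells, 5 of them of day 2, COL1A1 was at 0.08 CPM in CF at day 2, a log2 difference of 0.11, and none of COL1A1, COL1A2 and COL3A1 passed 2-fold at that day. COL1A1 was then 126-fold (57.1 to 345) and 69.6-fold (40.3 to 132) higher at day 7 and day 9, and COL1A2 was at 2.19 and 1.78 CPM in CF.

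COL27A1, a fibrillar collagen of cartilage, was expressed otherwise. It was higher in CF at every day, at 4.11 to 6.48 CPM against 0.38 to 1.33 CPM in WT, and its CF UMIs were spread over the clusters, with 10.7% in the richest. Summed, fibrillar collagens were 10.5, 47.5, 24.2 and 26.7 CPM in WT and 19.2, 14.2, 82.7 and 73.9 CPM in CF, differences of 0.82, -1.67, 1.73 and 1.43. COL5A2 made up 92.6% to 94.9% of this sum in the WT libraries and 38.7% to 66.0% in those of CF. Without the 7 CF cells, the CF sum was 11.2, 64.4 and 66.7 CPM at day 2, 7 and 9. COL5A2 then made up 6.81, 46.4 and 48.0 CPM of it.

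COL17A1, the transmembrane collagen of the hemidesmosome, led the other group. It was 145, 166, 163 and 126 CPM in WT and 169, 203, 348 and 269.5 CPM in CF. The CF to WT ratio was 1.17 (1.14 to 1.19) and 1.22 (1.20 to 1.25) at day 2 and day 5, and 2.14 (2.09 to 2.19) at both day 7 and day 9.

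COL7A1, the anchoring fibril collagen, was 0.30, 2.02, 0.96 and 1.69 CPM in WT and 0.59, 0.85, 8.12 and 15.7 CPM in CF. Its CF to WT ratio was below 1 only at day 5, at 0.423 (0.313 to 0.566), and reached 9.28 (7.76 to 11.2) at day 9. COL12A1, which binds to the surface of fibrils, was 1.69, 13.0, 4.86 and 10.9 CPM in WT and 2.32, 4.13, 34.3 and 40.6 CPM in CF. It too was below WT at day 5, with a ratio of 0.318 (0.279 to 0.361), and above it at day 7 and day 9, with ratios of 7.06 (6.30 to 7.92) and 3.74 (3.46 to 4.05). Its log2 difference of -1.45 at day 5 became -0.47 without WT cluster 2 and CF cluster 11, the clusters with most of its UMIs. At that day they held 774 of 1314 WT and 5 of 295 CF UMIs of COL12A1, so this removal took mainly from WT.

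COL14A1, another fibril-associated collagen, was higher in CF at each day, at 0.57 to 5.82 CPM against 0.01 to 0.11 CPM. COL23A1, a transmembrane collagen, was likewise higher in CF throughout, at 2.42 to 5.01 CPM against 0.53 to 0.98 CPM. Among the 20 detected collagens it was the 1 with its CF maximum at day 2. COL28A1, a beaded filament collagen, went the other way on all 4 days, at 0.52 to 5.73 CPM in WT and 0.06 to 0.12 CPM in CF, with a ratio of 0.0125 (0.00257 to 0.0368) at day 9. COL6A2, a chain of the microfibrils of type VI, was at 0 to 0.39 CPM in WT and 0.27 to 2.32 CPM in CF. COL10A1, a network collagen of cartilage, was at 0.53 to 1.20 CPM in all libraries and on the CPM + 1 scale stayed under 2-fold at each day, with a plain ratio of up to 2.26 (1.51 to 3.40) at day 9.

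Over time, more collagens were higher at day 9 than at day 2 than were lower. From day 2 to day 9, 7 of the 20 collagens were at least 2-fold higher in WT (9.17% of all genes were) and none lower (5.94%), with a median log2 change of 0.51. The WT genes were COL7A1, COL12A1, COL4A4, COL4A3, COL18A1, COL5A2 and COL28A1. In CF 12 were higher (7.52%) and none lower (3.11%), with a median of 1.39. Both counts and medians include the 6 genes that reached 1 CPM only in CF, and COL28A1, which did so only in WT. On the CPM + 1 scale the 6 changed by -0.03 to 0.47 in WT, where they were under 1 CPM, and by -0.81 to 1.40 in CF. Values over the 13 genes at 1 CPM in both genotypes were not taken for these changes. COL18A1 differed between both days by 3.69 in WT and 3.65 in CF on the log2 scale, and COL4A1 by 0.55 in WT and 4.09 in CF. The highest library of WT was day 5 for 14 of the 19 genes with a WT UMI, and that of CF was day 7 for 8 and day 9 for 11 of the 20. The shares of all genes with those highest days are not given here, so these counts have no base rate. Some rest on few UMIs, such as COL1A2 in WT, with 3 at each of day 5, 7 and 9.

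Much of the type I and III collagen of CF lay in very few cells. Of 11345 CF cells, 7 held at least 3 COL3A1 UMIs, from 6 to 75 each, and of 21600 WT cells none did. These cells, 5 at day 2, 1 at day 7 and 1 at day 9, held 97.9% of all CF UMIs of COL3A1, 71.9% of COL1A2, 51.6% of COL1A1, 45.6% of COL6A2 and 22.9% of COL4A1. The deposited table placed all 7 in CF cluster 11 under a centroacinar name, and at day 2 they were the 5 CF cells of that cluster. In the 7 cells COL1A1 was 47, 184, 31, 27, 162, 343 and 126 UMIs.

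The same cells held UMIs of mesenchymal markers. PDGFRB, THY1 and LUM, genes of fibroblasts and pericytes, had UMIs in 7 of 7 and none in the 394 other cells of the cluster. Of the rest of the fibroblast list, DCN and TWIST1 were seen in 5 of the 7, PRRX1 in 3 and PDGFRA in 2, and DPT, TWIST2 and MEOX1 were at 0. Of the smooth muscle list, ACTA2 was seen in 6, RGS5 and MCAM in 2 and CSPG4 in 1, and MYH11, DES and CNN1 were at 0. ACTA2, smooth muscle actin, had 1238 UMIs, of which 766 and 405 were in the cells of day 7 and day 9. Of the epithelial genes, KRT19 was seen in 5 of the 7 (55 UMIs), KRT7 and KRT8 in 3, EPCAM and CDH1 in 2, KRT18 and CLDN4 in 1 and CLDN7 in none. KRT8 and EPCAM were seen in 100% and 97.0% of the other 394. TWIST1 had a UMI in 69.0% of the other 394 cells and so did not set the 7 apart.

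Without the 7 cells, the difference of the fibrillar sum was 0.10, 1.37 and 1.29 at day 2, 7 and 9 in place of 0.82, 1.73 and 1.43. Of the genes higher in CF at day 2, only COL18A1, COL23A1 and COL27A1 stayed past 2-fold. COL1A1 was then at 0.08 CPM at day 2 and day 5, but at 9.08 and 10.7 CPM at day 7 and day 9. The COL1A1 UMIs of the other CF cells had a ratio to COL1A2 of 5.13, against 2.14 in the 7. COL3A1 was left with 5 CF cells of 1 UMI each.

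Over the cells, collagens were uneven. The 5 clusters of each genotype richest in basement membrane and fibrillar UMIs held between 65.6% and 68.9% of them in WT at day 5 to day 9, in 24.0% to 33.9% of the cells. In CF they held between 71.0% and 80.1%, in 36.5% to 42.6% of the cells. At day 2 these clusters had only 23 WT and 11 CF cells. Within WT cluster 2, COL18A1 was 536, 476 and 498 CPM at day 5, 7 and 9, while its cells made up 12.7%, 1.12% and 5.93% of the library.

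WT clusters 2 and 5, under a ductal name, held 818 and 698 CPM of basement membrane collagens and 239 and 128 CPM of fibrillar collagens. In CF, clusters 11 and 3, under a centroacinar name, held 1474 and 1229 CPM and 424 and 107 CPM. The fibrillar sums differed in makeup. In WT cluster 2, COL5A2 alone was 234 CPM. CF cluster 11 also held COL1A1 at 140 CPM and COL1A2 at 53.9 CPM, most of both in the 7 cells. Without the 7 cells with COL3A1, cluster 11 held 1422 CPM of basement membrane and 249 CPM of fibrillar collagens. WT clusters 0 and 8, also ductal by name, had 220 and 486 CPM of basement membrane collagens with only 5.20 and 5.18 CPM of fibrillar ones. Higher values yet, up to 2964 CPM of basement membrane collagens in CF cluster 27, were in shallow clusters such as CF 27, CF 23 and WT 20, whose median cell held 4718, 3246 and 3397.5 UMIs.

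**Figure D3:**
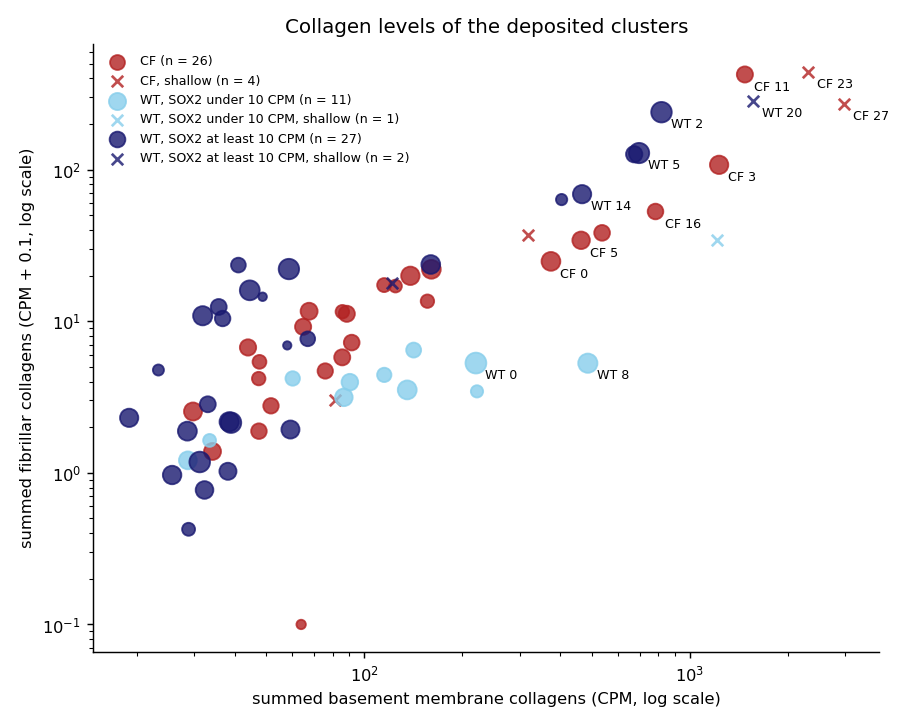
Basement membrane (horizontal) against fibrillar (vertical) collagen level in each of the 71 deposited clusters, in CPM on log axes, the vertical one plus 0.1, with WT split by SOX2, larger points for more cells and crosses for clusters of low depth (median UMIs under 1 part in 3 of their library). WT clusters 0 and 8, with under 10 CPM of SOX2, lie at 220 and 486 CPM of basement membrane and 5.20 and 5.18 CPM of fibrillar collagens, and WT clusters 2 and 5 at 818 and 698 CPM and at 239 and 128 CPM.

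By deposited class, the collagen-rich name differed between the genotypes. Over the 58 of 71 clusters kept under their class name by markers of the study's classes, ductal cells held 371, 321 and 437 CPM of basement membrane collagens at WT day 5, 7 and 9, when WT clusters 2, 14 and 8 were their largest, and 103, 120.1 and 110.1 CPM in CF, when CF clusters 12, 12 and 26 were. Centroacinar cells held 79.4, 143 and 70.2 CPM in WT (largest WT clusters 7, 12 and 3) and 316, 859 and 713 CPM in CF (CF clusters 0, 16 and 3). WT cluster 2, ductal by name, and CF cluster 11, centroacinar by name, both had INHBA, FN1, ANKRD1, TAGLN and CALD1 among their 10 leading genes, none of them a marker of those classes. ACTA2 led CF cluster 11 through the 7 cells, which held 1238 of its UMIs against 68 in the other 394. Without WT cluster 2, WT ductal cells held 258, 312 and 378 CPM of basement membrane collagens, and without CF cluster 11, CF centroacinar cells held 316, 685 and 583 CPM. The authors had named the clusters within each genotype, so these are levels in classes of different makeup. Centroacinar progenitors were low in both, at 30.8 to 37.5 CPM in WT and 47.0 to 52.2 CPM in CF.

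Shares of cells with a UMI were set beside these levels. Each cell was first thinned to 3000 UMIs. With at most 41 shallower cells of a class left out, COL18A1 was seen at day 9 in 55.4% of WT ductal cells (exact interval 53.2% to 57.6%) and 61.0% of CF centroacinar cells (58.6% to 63.4%). It was seen in 4.83% of WT centroacinar cells and in 8.16% of CF ductal cells (2.27% to 19.6%), a class of 51 cells. In centroacinar progenitors, the lowest class, the share was 1.43% in WT and 1.67% in CF, at median depths of 14542 and 21625.5 UMIs beside 15017 in WT ductal and 21191 in CF centroacinar cells. Unthinned, the shares were 77.1%, 72.7%, 13.7%, 39.2%, 5.20% and 6.11% in the order given. WT ductal and CF centroacinar cells stood, thinned, at 53.3% (51.5% to 55.1%) and 45.6% (43.1% to 48.1%) at day 5, with WT the higher, and at 48.3% (46.2% to 50.4%) and 73.6% (70.2% to 76.8%) at day 7. Without WT cluster 2 and CF cluster 11 the thinned shares at day 9 were 51.1% (48.6% to 53.5%) and 54.7% (52.0% to 57.3%). COL17A1 was seen in 46.2% of WT ductal and 55.1% of CF centroacinar cells at day 9 (45.4% and 51.6% without WT cluster 2 and CF cluster 11) and in 4.04% and 6.11% of the progenitors.

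Several collagens shared the clusters that held most of their UMIs. COL4A1, COL4A2, COL12A1, COL15A1 and COL5A2 had more UMIs in WT cluster 2 and in CF cluster 11 than in any other cluster of the genotype. COL4A3, COL4A4, COL4A5, COL10A1, COL17A1 and COL18A1 had most in WT cluster 2 and CF cluster 3. Others had places of their own. Of the CF UMIs of COL14A1, 36.3% were in cluster 14 and 20.7% in cluster 16. Of the WT UMIs of COL28A1, 19.3% and 17.2% were in clusters 10 and 1, both deposited as centroacinar progenitors, a name not kept here for cluster 1. Its Pearson's r with COL17A1 over the 71 clusters was -0.71.

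Across the 71 clusters, whose levels share libraries and depth, COL4A1 and COL4A2 had r = 0.95, and COL1A1 and COL1A2 with r = 0.91. The genes most like the summed basement membrane collagens among 10230 were PAWR (r = 0.95), ECE1 (0.95), KIRREL1 (0.95), SMAD7 (0.94) and LSP1 (0.94). Those most like the fibrillar sum were EPHB4 (0.92), MEGF6 (0.91), CHSY1 (0.91), CACNA1H (0.90) and SULF2 (0.90).

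SOX2, a transcription factor of foregut epithelia, divided the WT clusters, a split that was known from earlier results of these data. Of the 41 WT clusters, 12 had 0.81 to 4.87 CPM of SOX2 and 29 had 50.6 to 205 CPM, whereas the 30 CF clusters had at most 1.08 CPM. In SOX2-low cells COL5A2 was 0.27 to 1.34 CPM over the 4 days, against 11.2 to 82.2 CPM in SOX2-high cells, and COL4A1 was 0.27 to 0.62 CPM against 1.71 to 19.7 CPM. COL28A1 was at 0 to 0.17 CPM in SOX2-low cells and at 0.60 to 8.65 CPM in SOX2-high ones.

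The fibrillar COL27A1 and the transmembrane COL23A1 and COL17A1 lay the other way. COL27A1 was 1.77 to 3.14 CPM in SOX2-low cells, 0.17 to 0.37 CPM in SOX2-high cells and 4.11 to 6.48 CPM in CF. COL23A1 was 1.12 to 1.91, 0.27 to 0.36 and 2.42 to 5.01 CPM in the same order. COL17A1 was 173 to 233 CPM in SOX2-low and 79.0 to 145 CPM in SOX2-high cells, beside 169 to 348 CPM in CF.

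Set against SOX2-low WT cells alone, CF had 6, 3, 15 and 12 of the 20 collagens at least 2-fold higher at day 2, 5, 7 and 9 and none at least 2-fold lower. By that rule 2.6%, 4.59%, 7.16% and 3.3% of all genes were higher and 2%, 3.48%, 2.78% and 1.89% lower. The medians were then 0.48, 0.40, 2.22 and 1.59. These counts and medians include the 6 genes that reached 1 CPM only in CF, and so were counted through the genotype where they were high. Values over the 13 genes at 1 CPM in both genotypes were not taken for this split. Of the 6 collagens at least 2-fold lower in CF than in all WT cells at day 5, COL4A1, COL4A2, COL4A4, COL5A2 and COL12A1 were higher against SOX2-low cells, by 0.52, 0.49, 0.94, 2.13 and 0.78, and COL28A1 was no longer 2-fold lower. Against SOX2-high WT cells, CF had 7, 3, 14 and 15 higher (5.81%, 6.13%, 7.52% and 7.14% of all genes) and 1, 9, 1 and 1 lower (5.43%, 7.45%, 4.48% and 5.51%), with a median of -0.38 at day 5. Both sets of values share the CF libraries. In both, COL1A1, COL1A2, COL3A1 and COL6A2 passed 2-fold at day 2 only through the 7 cells with COL3A1. Without those cells they were at 0.08, 0.01, 0.03 and 0.11 CPM in CF at day 2. COL3A1 and COL6A2 passed 2-fold at day 7 through 1 of the cells.

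The balance of COL4A3 and COL4A4 differed by SOX2 as well. COL4A3 and COL4A4 lie head to head and overlap by 117 bases in the annotation, and whether the counting used strand was not stated. For each COL4A4 UMI there were 0.0750, 0.0504, 0.0491 and 0.0448 COL4A3 UMIs in SOX2-high WT cells at day 2, 5, 7 and 9. In SOX2-low WT cells there were 0.326, 0.240, 0.275 and 0.279, and in CF 0.369, 0.293, 0.252 and 0.243. The intervals of SOX2-low WT and CF cells overlapped at each day, and both lay above those of SOX2-high cells. Such a ratio of 3' end counts is not a ratio of proteins, and it was compared only between cells.

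**Figure D4:**
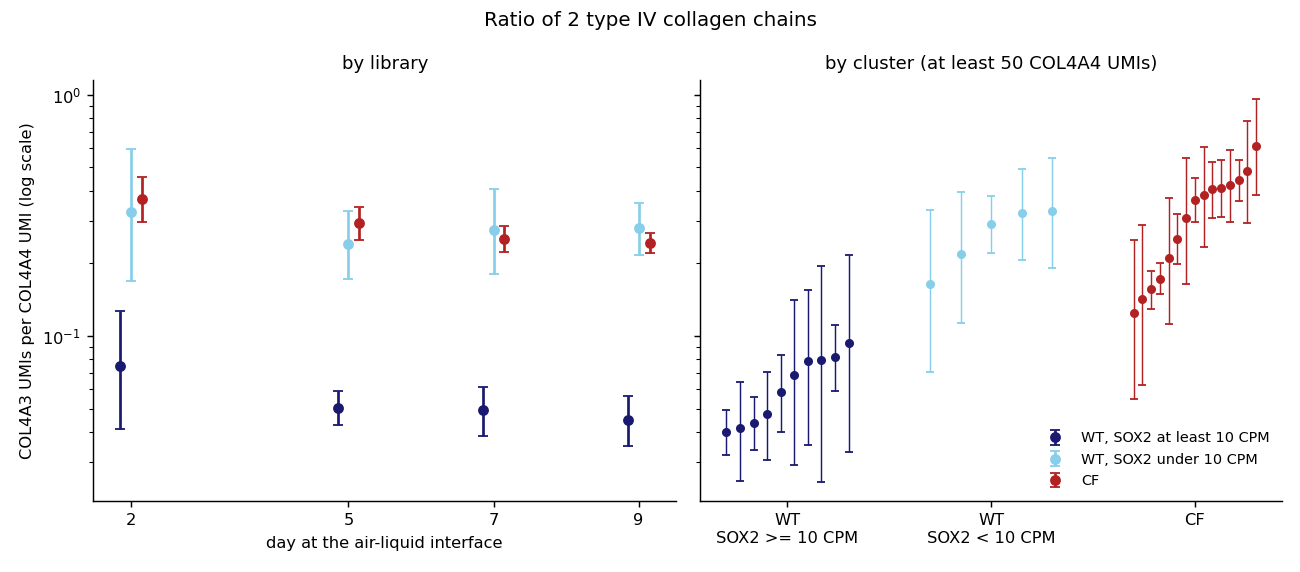
COL4A3 UMIs per COL4A4 UMI (log axis) by day in each kind of cell (left) and in each cluster with at least 50 COL4A4 UMIs (right), with exact 95% bars. The 10 SOX2-high WT clusters lie between 0.040 and 0.094, the 5 SOX2-low WT clusters between 0.164 and 0.328 and the 15 CF clusters between 0.125 and 0.611.

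COL4A1 and COL4A2, 152 bases apart in the annotation, were counted at 0.711, 1.45, 1.20 and 0.912 COL4A1 UMIs per COL4A2 UMI in WT. In CF the ratio was 1.72 and 1.12 at day 2 and day 5 and 3.35 and 3.07 at day 7 and day 9. Without the 7 cells it was 1.13 (0.532 to 2.44) at day 2 and 2.85 and 2.83 at day 7 and day 9. In WT the intervals of SOX2-low and SOX2-high cells overlapped at each day, with only 4 to 16 COL4A1 UMIs in SOX2-low cells. It was 4.65 in the 7 cells with COL3A1 and 2.66 in the other CF cells.

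Genes that make and process collagen were examined beside the collagens. Of a list of 35, 34 were in the matrices and 23 were detected, of which 2, 1, 6 and 4 were at least 2-fold higher in CF and 2, 5, 1 and 1 lower at day 2, 5, 7 and 9, with medians of 0.11, -0.33, 0.67 and 0.57. Of all genes, 4.48%, 2.68%, 5.57% and 4.02% were higher and 4.77%, 5.14%, 3.68% and 4.26% lower. P3H2, which hydroxylates proline in type IV collagen, was 0.39 to 1.28 CPM in WT and 6.68 to 26.4 CPM in CF. SERPINH1, the collagen chaperone HSP47, was 23.2, 46.2, 35.6 and 37.6 CPM in WT and 32.6, 42.9, 103 and 116 CPM in CF. TGM2, a cross-linking transglutaminase, was lower in CF at each day, at 3.54 to 13.8 CPM against 24.2 to 41.9 CPM.

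P4HA1 and P4HA2, the catalytic subunits of prolyl 4-hydroxylase, differed by 1.26, 0.38, 1.12 and 0.63 and by 0.86, -0.45, 1.06 and 1.31 on the log2 scale, and the lysyl hydroxylase PLOD3 by at most 0.67. Of 18 receptors and matrix partners, 17 were in the matrices and 10 were detected. Of these, 4, 1, 6 and 4 were at least 2-fold higher in CF and 1, 1, 0 and 0 lower, beside the same shares of all genes (4.48%, 2.68%, 5.57% and 4.02%; 4.77%, 5.14%, 3.68% and 4.26%), with medians of 0.51, 0.06, 1.14 and 0.82. Without the 7 cells 2 were higher at day 2, since SPARC and FN1 no longer passed 2-fold. SPARC, a collagen-binding protein, was 1.54, 159, 124 and 166 CPM in WT and 7.64, 95.5, 787 and 922 CPM in CF, below WT at day 5 and above it at day 7 and day 9 like COL18A1. At day 2, 584 of the 782 CF UMIs of SPARC were in 5 of the 7 cells, without which it was 1.94 CPM and the log2 difference of 1.76 became 0.21. Fibronectin, FN1, which falls outside the rule for named genes and was chosen after its values were seen, was 0.11, 263, 93.1 and 155 CPM in WT and 3.23, 5.99, 404 and 431 CPM in CF. Of its 331 CF UMIs at day 2, 295 were in 5 of the 7 cells, and without them it was 0.35 CPM. Its log2 difference was -5.24 at day 5 and 2.11 and 1.47 at day 7 and day 9. ITGA2, an integrin receptor of collagen, and BGN, a small proteoglycan, were higher in CF at each day, by 0.34 to 1.40 and by 1.17 to 1.35. AGRN and DDR1 were within 2-fold at each day, and ITGB1, a shared integrin chain, was so except at day 7 (1.16).

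Mesenchymal marker lists were summed in each library. Fibroblast or stellate markers, 5 of 10 detected, were at 23.0 to 33.2 CPM in WT and 34.5 to 41.8 CPM in CF and were led by TWIST1, which alone was at 18.4 to 27.8 CPM in WT and 29.1 to 34.8 CPM in CF. PDGFRA, a receptor of fibroblasts that falls outside the rule for named genes, was lower in CF at each day, with log2 differences of -1.09, -0.85, -0.84 and -1.21. The other detected members went the other way. TWIST1, PRRX1 and MEOX1 were higher at each day, by 0.26 to 0.63, 0.09 to 0.44 and 0.51 to 0.88. THY1 was higher at day 2, 7 and 9, with 178 of its 186 UMIs in the 7 cells. Smooth muscle or pericyte markers, 4 of 7 detected, were at 1.20 to 2.23 CPM in WT and 0.84 to 28.5 CPM in CF, led by ACTA2. Without the 7 cells the CF sums were 0.75 to 2.94 CPM, and the highest, at day 7, was 28.5 CPM through 1 cell. Immune markers, 3 of 6 detected, were at 11.8 to 19.4 CPM in WT and 5.87 to 25.1 CPM in CF. CD68 had the most UMIs over all libraries, but in WT at day 2 CD14 led, at 15.1 CPM against 3.88 CPM. Beyond the values given without the 7 cells, the part of such cells in the collagen levels was not tested.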

How the data were processed

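Per the labels and the methods of the study, the authors ran Cell Ranger 5.0.1 against ASM1176430v1.1, a ferret genome, with an improved transcriptome annotation that had been described earlier. The deposited matrices hold whole UMI counts of 27912 genes, not normalized. In Seurat they dropped cells under 200 genes or over 20% mitochondrial reads. DoubletFinder had already taken out doublets, and none were called here. The 8 libraries were merged with no correction for batch. A deposited cell table gave library, cluster, class and percent mitochondrial UMIs of 32945 cells. Normalized values and lineage scores were not used.

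UMIs of these cells were summed per library, cluster or class and scaled to CPM (Python 3.11.15, pandas 2.3.3, numpy 2.4.6, scipy 1.17.1, figures with matplotlib 3.10.9). Differences were log2((CF CPM + 1)/(WT CPM + 1)), which understates low genes, and a gene was called at 2-fold on that scale. Detected meant at least 1 CPM in a library. Intervals at 95% were exact Poisson for sums, exact conditional binomial for ratios and exact Clopper-Pearson for shares. A count of 0 was bounded at 3 counts. Cells were thinned to 3000 UMIs for shares. With 1 library per genotype and day no p-value was computed, and cells were not used as replicates. The steps were tested on simulated data.

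Every detected collagen was named, those of at least 10 CPM with each library's value. Of the lists of collagen making genes and of receptors and partners, the 6 with the largest mean difference and at least 10 CPM were named, and of the marker lists the most abundant gene and those at 0. Members and lists were chosen with earlier results of these data known. All 44 symbols matched the RefSeq gene table of ASM1176430v1.1. A cluster lost its class name where, by the study's class markers, those of another class outnumbered its own among the 10 leading genes, or where it was shallow (a median depth under 1 part in 3 of its library) with no marker of its own. Alternatives were all deposited barcodes, deeper cells, TMM factors (edgeR 4.0.16) or DESeq2 1.42.0 size factors in R 4.3.3, a pseudocount of 5 CPM, equal weight per cell, SOX2-low WT cells, a 5 CPM filter, and leaving out clusters. Leaving out the 7 COL3A1 cells, the genes under 1 CPM in 1 genotype, and WT cluster 2 and CF cluster 11 from their classes, was chosen after seeing the data.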

Additional observations from a re-analysis of the deposited data

Results flagged for a closer look

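The differences below, CF minus WT on the log2 scale, passed 2-fold in opposite directions on different days. The change of direction between days was not tested, since each day was 1 library of each genotype. COL4A1 was at -2.62 at day 5, 1.65 at day 7 and 3.03 at day 9, the last 2 becoming 1.17 and 2.78 without the 7 COL3A1 cells. COL4A2 was at -1.12 at day 2, -2.21 at day 5 and 1.41 at day 9. COL5A2 was at -2.18 at day 5 and 1.05 at day 7, where it was 0.91 and so under 2-fold with TMM or DESeq2 factors. COL12A1 was at -1.45 at day 5, 2.59 at day 7 and 1.81 at day 9. Beside these values, WT cluster 2, which held more WT UMIs of each of the 4 genes than any other WT cluster (27.8% to 42.7%), made up 12.7% of the WT cells at day 5 and 1.12% and 5.93% at day 7 and day 9. CF cluster 11, which held more of their CF UMIs than any other CF cluster (34.6% to 57.1%), made up 0.07% of the CF cells at day 5 and 7.97% and 10.7% at day 7 and day 9. Without both clusters, COL4A1 was at -1.70, 0.14 and 2.76 at day 5, 7 and 9, COL4A2 at -1.52, -0.65 and 1.27, COL5A2 at -0.99, 0.44 and 1.18 and COL12A1 at -0.47, 1.53 and 1.78. COL4A1 and COL4A2 thus still passed 2-fold in both directions, and COL5A2 and COL12A1 did not. The clusters were chosen by their UMIs of these genes, so smaller differences at day 5 and day 7 followed partly from that choice.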

How the results depend on the processing

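The labels give no replicate numbers to pair by, with 1 library for each genotype and day. The libraries can be matched by day, but a fit over the 4 days with day as a block was not run. Of 54 differences of at least 2-fold (genes and group sums), 54 kept their direction with TMM factors, DESeq2 size factors, all barcodes, cells of at least 3000 UMIs, equal weight per cell and a pseudocount of 5 CPM, and 51, 52, 53, 54, 50 and 31 of them stayed at least 2-fold. Without the single cluster richest in UMIs of the gene or group in each genotype, 53 kept it and 36 stayed at least 2-fold. These clusters were chosen by the UMIs they held, so smaller differences can follow from that choice. With either set of factors the median over all genes moved by -0.13 at day 7 and by less than that at the other days.

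Against SOX2-low WT cells, 47 kept their direction and 7 turned: COL18A1 at day 2 (-0.11) and, at day 5, the fibrillar sum (1.53), COL12A1 (0.78), COL4A4 (0.94), COL4A2 (0.49), COL4A1 (0.52) and COL5A2 (2.13). The medians at day 5, 7 and 9 became 0.40, 2.22 and 1.59, and the numbers lower at day 2, 5, 7 and 9 all became 0.

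With a pseudocount of 5 CPM the medians at day 2, 5, 7 and 9 were 0.21, -0.091, 1.00 and 0.85. The numbers higher fell to 1, 0 and 8 at day 2, 5 and 9, and those lower to 0 at day 2 and day 9. The numbers higher at day 7 and lower at day 5 with this pseudocount are not given here and are not to be read as unchanged. The shares of all genes with it are not given either. With equal weight per cell the medians were 0.66, -0.38, 1.32 and 1.76, and the number lower at day 2 was 0. With a 5 CPM filter the medians at day 5, 7 and 9 were -0.47, 1.61 and 1.62. At day 7 the median was 1.42 with all barcodes and 1.39 with either set of factors. Without the 7 COL3A1 cells, an alternative chosen after seeing the data, the medians at day 2 and day 7 were 0.18 and 1.13, and 3 were higher and 2 lower at day 2. Of the 13 collagens at 1 CPM in both genotypes, also chosen after seeing the data, 2, 1, 9 and 10 were higher at day 2, 5, 7 and 9. Of the 20, 7, 2, 14 and 15 were. Among all genes at 1 CPM in both genotypes, 4.15%, 2.19%, 4.65% and 3.28% were higher. The pseudocount moves low genes most, and the cause of the other shifts was not tested. Depth limits the genes near 1 CPM, and 1 library a group leaves variation between animals unmeasured.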
